A study of Mus musculus with 4 samples.

Results

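The genes described here are 56 transcription factor genes of 12 families that set regional identity in the embryo. They were chosen by a rule on the name, set with earlier results of these data known. The rule took every gene on the arrays whose symbol was Tbx, Irx, Meis, Pbx, Msx, Dlx, Lhx, Pitx, Prrx, Twist, Alx or the stem of Six5 followed by a number. This gave 56 of the 27745 gene names on the arrays, read by 94 probes, with 1 probe for 31 genes and several for the other 25. All 56 symbols were also found in RefSeq, so no member was listed only under an outdated name.

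Factors of these families are switched on in patches of the early embryo and tell cells where along the body, limb or face they lie. Mesenchymal cells such as fibroblasts often keep part of this regional code in culture. Many of the genes are known targets of Polycomb repressive complex 2 (PRC2), which keeps developmental genes silent by methylating histone H3. The kinase Lats2 belongs to the Hippo pathway, which responds to cell contact and restrains the coactivators Yap and Taz, and these act on genes through TEAD proteins.

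Mouse embryonic fibroblasts (MEFs) on a C57BL/6J background carried either the genotype Lats2-/- (KO) or Lats2+/+ (WT). Cells of each genotype were grown in DMEM with 10% serum, either for 48 h to a subconfluent state (low density) or for 3 to 5 days (high density). RNA from both densities of 1 genotype was put on the same 2-colour whole mouse genome array, and a second array carried the same pair with the dyes exchanged, which made 4 arrays and 8 channels in all. The 2 arrays of a genotype are a dye swap and count as 1 replicate, and the labels do not say how many embryos or cultures stood behind them.

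No p-value is therefore given, and a member was called higher or lower when its mean log2 ratio over the dye swap was at least 1 in size (2-fold) with the same sign in both orientations. Each mean log2 ratio is given with the SD over the 2 orientations, which covers technical error only. Signals are log2 of the background-corrected and normalised intensity and can be compared between conditions for a gene but not between genes. A member counted as measured in a comparison when its brightest probe was well above background on both arrays of at least 1 of the 2 sides.

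Most probes for Lats2 itself went against the genotype labels. Of 4 Lats2 probes, 3 were higher on KO-labelled arrays, with low density log2 ratios of 1.19, 1.39 and 1.38, and the probe nearest the gene's 5′ end ran with the labels and was lower, by -0.63 (low density) and -1.26 (high density) on the log2 scale. The study also describes loss of the Lats2 protein in its KO MEFs by western blotting, which runs with the labels and was not analysed here. KO and WT name labels throughout, and every genotype direction rests on them. A probe outside the deleted stretch checks nothing, and where the deletion lies relative to the probes was not examined. Slide and scan cannot be told apart from genotype, since the arrays labelled KO were on other slides than those labelled WT. The labelled cell type had its markers, as all 9 fibroblast genes of the list were detected, 8 of them in all 8 channels. Of the markers of other cell types, no channel was above background for 5 of 6 endothelial, 5 of 8 epithelial, 3 of 6 macrophage, 3 of 5 skeletal muscle, 3 of 6 neural and 2 of 5 cartilage genes. Acta1 of skeletal muscle and Col2a1 of cartilage were bright, with WT low density means of 13.07 and 12.80 on the log2 scale.

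Of the 56 members, 36 were well above background on both arrays of at least 1 condition, and 28 were so in all 8 channels. The other 20 were not detected, and for 14 of these not 1 channel of any probe rose above background. Not detected were Tbx1, Tbx5, Tbx10, Tbx19, Tbx21 and Tbx22 among 13 T-box genes, and Lhx1, Lhx3, Lhx4 and Lhx5 among 8 LIM homeobox genes. The list goes on with Dlx3, Dlx4 and Dlx6, Six2, Six3 and Six6, Irx4 and Irx6, Msx3 and Pitx1. Factors best known from the brain, eye and pituitary (Six3, Six6, Lhx3, Lhx4, Lhx5), from T cells (Tbx21) and from the forelimb and hindlimb programs (Tbx5 and Pitx1) were among these. Relatives known from the same tissues were detected, such as Lhx2, Lhx6, Lhx8 and Dlx2 of the forebrain or eye field and the hindlimb factor Tbx4, the last close to background. A low level under the array's background cannot be seen. Among the 22 members that lie within 1000 kb of another member in RefSeq, a detected and an undetected gene were neighbours in 8 of 16 pairs. The forelimb gene Tbx5 was at background in every channel beside Tbx3, and Dlx6 was above it in 1 channel beside Dlx5.

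**Figure D1:**
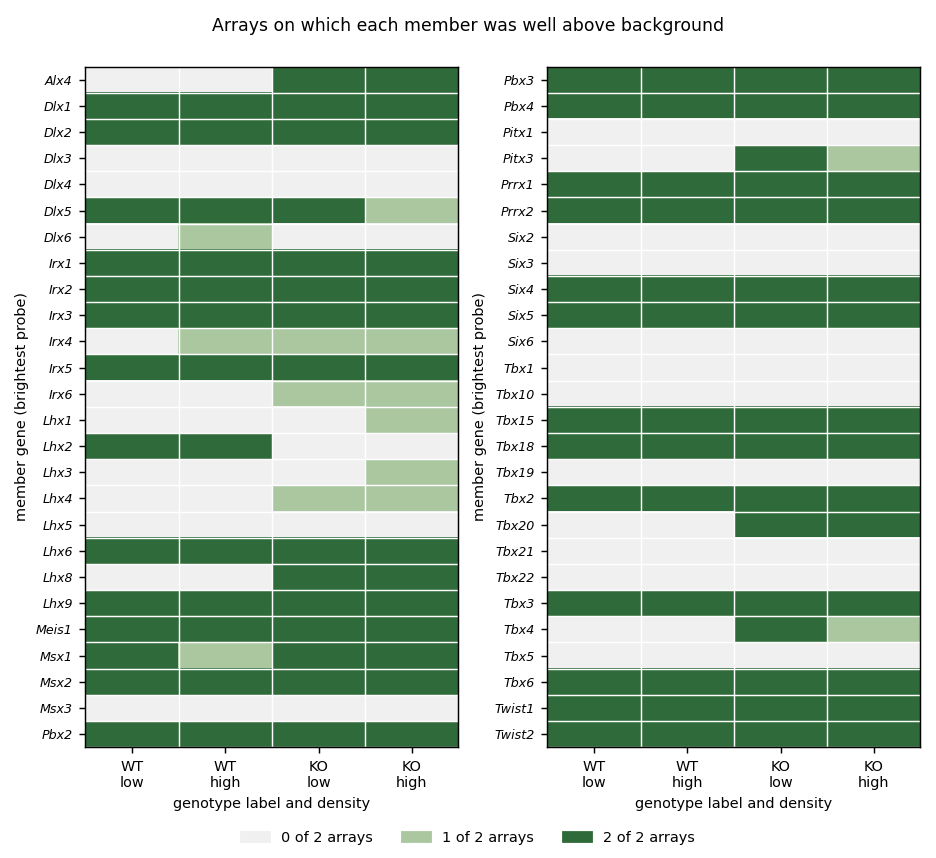
Detection of 52 of the 56 members, 1 row per gene, with the 4 conditions as columns. Colour gives on how many of the 2 arrays the brightest probe was well above background, and 32 of those shown reach 2 of 2 arrays in some condition while 20 do not.

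With density, more members were called higher than lower in both genotypes. In the WT-labelled cells 10 of 31 measured members were called, 6 higher and 4 lower at high density, against 15.5% of all genes measured (9.41% higher and 6.09% lower). In the KO-labelled cells 9 of 35 were called, 6 higher and 3 lower, against 11.0% of all genes (7.16% higher and 3.87% lower). In the KO-labelled cells the counts were equal, 3 and 3, with median centring, beside 12.1% of all genes called. They were 4 and 4 without the first array, beside 11.6%. With the mean over probes 5 of 35 were called, 3 higher and 2 lower, beside 9.24%. The median log2 ratio of the members was 0.48 in WT-labelled and 0.28 in KO-labelled cells, beside 0.06 for all genes in each. With arrays centred on the median in place of loess, the WT value was 0.25. The density effect itself differed between the labels by at least 2-fold for 5 of 30 members, 3 with a higher and 2 with a lower ratio in KO-labelled cells, against 9.53% of all genes (4.55% higher and 4.97% lower). The members' median difference was -0.11, beside 0.02 for all genes, and it was -0.06 without the first and -0.03 without the second array of either genotype.

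Members were called more often between genotype labels than between densities, although these comparisons share channels and the difference in count was not tested. At low density 16 of 36 measured members differed, 12 higher and 4 lower in the KO-labelled cells, against 15.7% of all genes. At high density 15 of 34 differed, 11 higher and 4 lower, against 14.5% of all genes. Alx4, Lhx8, Tbx20 and Lhx2 were measured here only through the genotype in which they were high. With a filter on every channel, which drops such genes, 9 members differed at high density. By direction, all genes gave 7.32% higher and 8.36% lower at low density and 6.74% higher and 7.79% lower at high density. The typical size of a member's difference was also larger than that of all genes, with a median absolute log2 ratio of 0.87 against 0.41 at low density and 0.77 against 0.37 at high density. The same 12 members were called at both densities, 10 of them higher and 2 lower, which is 35.3% of the 34 measured in both, beside 8.04% of all genes. Of these 12, 9 were called with density in neither genotype, or 75.0%, beside 58.8% of all genes called at both densities. Among the 9, Alx4 and Lhx8 were not measured with density in WT-labelled cells, nor Lhx2 in KO-labelled cells, and so could not be called there.

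**Figure D2:**
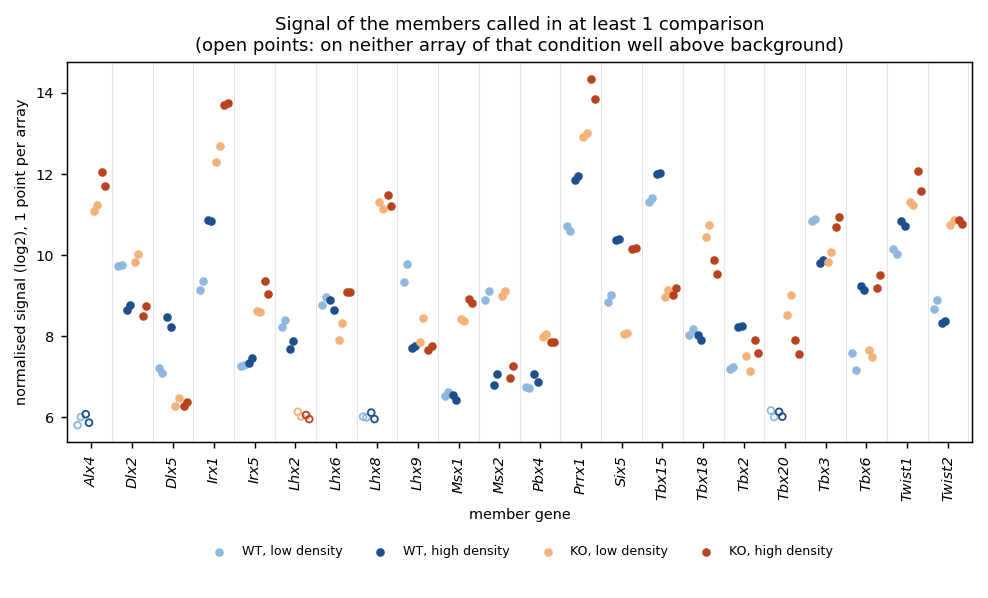
Normalised signal (log2) of 22 of the members called in at least 1 comparison, 1 point per array for each of the 4 conditions, to be compared within a gene only. Alx4, Lhx8 and Tbx20 had open points in both WT conditions and filled points in both KO conditions, and Lhx2 had the reverse.

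The largest differences between genotype labels were those of Alx4 and Lhx8, homeobox genes whose brightest probes were at background in the WT-labelled cells. Alx4, a paired-type factor of limb and craniofacial mesenchyme, gave 5.81 and 6.01 at low density and 6.08 and 5.87 at high density on the WT-labelled arrays, none of them well above background. On the KO-labelled arrays it gave 11.08 and 11.23 at low density and 12.05 and 11.70 at high density. Where 1 side was not well above background, the fold is a lower bound, set against the lowest signal that still passed as well above background on each array, or the probe's own signal where that was higher. That lowest signal is taken over all probes, and single probes failed above it, so the bound is approximate. By this measure the KO-labelled cells had at least 31.9-fold higher Alx4 signal at low density and at least 50.4-fold at high density, with measured log2 ratios of 5.25 and 5.90 (probe at chr2:93481759-93481818, mm8). The second Alx4 probe was much dimmer, stood above background on 1 of 2 WT-labelled arrays at each density, and gave log2 ratios of 0.64 and 0.88, the same direction without reaching 2-fold.

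Lhx8, a LIM homeodomain factor of forebrain interneurons and oral mesenchyme, had the same pattern. Its signal was 6.02 and 6.00 at low density and 6.12 and 5.96 at high density on the WT-labelled arrays, at background, against 11.30 and 11.13 at low density and 11.48 and 11.20 at high density on the KO-labelled arrays. It was at least 33.2-fold higher at low and at least 34.9-fold higher at high density, with measured log2 ratios of 5.20 and 5.30 (probe at chr3:154241706-154241765, mm8), and density moved it by a log2 ratio of only 0.13 ± 0.07 in the KO-labelled cells. Its second probe, above background on 1 of 2 WT-labelled arrays at low density, was also called at both densities, at a low density log2 ratio of 2.84 and by at least 7.15-fold at high density. Tbx20, a T-box factor of the developing heart, was the third such gene, at 6.01 to 6.17 in the WT-labelled channels, all at background. Its KO-labelled signals were 8.52 and 9.03 at low density and 7.90 and 7.56 at high density, which made it at least 6.1-fold and at least 2.84-fold higher (measured ratios 2.69 and 1.65). It fell with density in KO-labelled cells by a log2 ratio of -1.05 ± 0.60, with -0.63 and -1.48 on the arrays and -0.76 for its second probe, and the call is lost without the second KO-labelled array.

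Lhx2, a LIM factor of the limb bud and the eye field, ran the other way. Its signals were 8.24 and 8.39 at low density and 7.69 and 7.88 at high density on the WT-labelled arrays, and 5.96 to 6.14 and at background in all KO-labelled channels. In the KO-labelled cells it was lower by at least 4.62-fold at low and 3.17-fold at high density (measured ratios -2.24 and -1.77). The Lhx8 and Twist2 windows before the transcription start are shown because they are members called at both densities whose CpG content was far apart. Both are the 250 bases upstream of the start in RefSeq (GRCm38.p6), written 5′ to 3′ with every CpG in capitals, at chr3:154330561-154330810, minus strand and chr1:91801211-91801460, plus strand.
Lhx8: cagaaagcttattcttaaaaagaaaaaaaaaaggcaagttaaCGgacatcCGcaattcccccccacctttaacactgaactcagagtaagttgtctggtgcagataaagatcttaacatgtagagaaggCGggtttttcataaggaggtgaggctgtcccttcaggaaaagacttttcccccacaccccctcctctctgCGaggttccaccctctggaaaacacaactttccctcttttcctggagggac
Twist2: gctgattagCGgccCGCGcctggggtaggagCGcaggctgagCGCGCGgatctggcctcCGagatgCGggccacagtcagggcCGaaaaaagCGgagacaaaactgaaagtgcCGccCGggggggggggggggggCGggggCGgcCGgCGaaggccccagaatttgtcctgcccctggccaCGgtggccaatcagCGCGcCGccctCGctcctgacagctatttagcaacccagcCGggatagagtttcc
The Lhx8 window holds 4 CpG and the Twist2 window 23, beside a median of 16 over the 37 members with an entry and 6 over all 27025 genes with one. At least 10 CpG were found in 78.4% of the members and 38.2% of all genes. Members that were detected and members that were not had medians of 15.5 and 16.

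Among the paired-type factors, Prrx1 and its relatives mark limb and facial mesenchyme. Prrx1 was higher in the KO-labelled cells at both densities and rose with density in both genotypes. Its signals were 10.71 and 10.60 at low and 11.86 and 11.96 at high density in WT-labelled cells, and 12.92 and 13.00 at low and 14.34 and 13.86 at high density in KO-labelled cells, so the 4 conditions did not overlap. The density ratios were 1.25 ± 0.15 and 1.14 ± 0.40, and the genotype ratios 2.30 ± 0.13 at low and 2.19 ± 0.42 at high density. Of its 6 probes, 3 gave genotype ratios of 2.14 to 2.30 at low density and the 3 dimmer ones 0.36 to 0.84, the lowest of them a bound of at least 1.24-fold against background. With the mean over its probes in place of the brightest one the density ratios were 0.83 and 0.81, no longer 2-fold. The ratio in KO-labelled cells was also under 2-fold with median centring, at 0.65, and without the first KO-labelled array, at 0.86. Prrx2, its paralogue, was bright in every channel and moved little, with ratios of 0.48 and 0.28 with density and -0.25 and -0.45 between genotypes.

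Pitx3, a paired-type factor of the lens and of midbrain neurons, was detected at low density in KO-labelled cells only, close to background, and was called nowhere.

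3 genes of these families carry older names on the arrays and so fall outside the rule. Cart1, now called Alx1 and a further relative of Alx4, was higher in KO-labelled cells by log2 ratios of 4.54 at low and 5.48 at high density. The 2 dye orientations gave 3.59 and 5.48 at low density and 4.65 and 6.31 at high density, a wider spread than for Alx4, and in WT-labelled cells it was well above background on 1 of 2 arrays at each density. Mrg1 and Mrg2, now Meis2 and Meis3, rose with density in WT-labelled cells by 1.21 and 1.04, and had ratios of 0.27 and 0.26 in KO-labelled cells that were not called. Mrg2 was also called lower in KO-labelled cells at high density, at -1.15. These 3 genes were looked up after the members' values were known.

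The Msx and Dlx genes, which act downstream of BMP signals in the face, limbs and forebrain, include Msx2, the member with the lowest density ratio in each genotype. Msx2 gave 8.89 and 9.11 at low and 6.80 and 7.08 at high density in WT-labelled cells, and 9.00 and 9.12 at low and 6.98 and 7.27 at high density in KO-labelled cells. The 4 low density values lay above the 4 high density values, with ratios of -2.06 ± 0.04 and -1.94 ± 0.12, and the genotype ratios were 0.06 and 0.18. In Agilent's processed signals the WT density ratio was -3.30. Its paralogue Msx1 did not follow. It was called in no density comparison, with ratios of -0.07 and 0.47, but was higher in KO-labelled cells at both densities, by 1.83 ± 0.10 and 2.37 ± 0.02. Its WT-labelled signals, at 6.44 to 6.62, were well above background on both arrays only at low density, and on 1 of 2 at high density. Its second probe was at background in WT-labelled cells and gave only lower bounds, at least 1.38-fold at low and 1.54-fold at high density. The ratio of the brightest probe depends on the background correction, and Agilent's processed signals gave 3.18 and 4.17.

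Dlx2, a gene of the jaw and forebrain, also fell with density in both genotypes. It gave 9.73 and 9.76 at low and 8.66 and 8.76 at high density in WT-labelled cells and 9.83 and 10.03 at low and 8.50 and 8.75 at high density in KO-labelled cells, and the low and high density values did not overlap. The ratios were -1.04 ± 0.05 and -1.31 ± 0.04. Its genomic neighbour Dlx1 had ratios of -0.36 ± 0.03 and -0.61 ± 0.01, of the same sign and below 2-fold. Dlx5, a factor of bone-forming cells, rose with density in WT-labelled cells, from 7.21 and 7.10 to 8.47 and 8.23, a ratio of 1.20 ± 0.09. In KO-labelled cells it stayed between 6.28 and 6.47, close to background, with a ratio of -0.04 ± 0.06. The difference in density effect was -1.24 ± 0.03, and at high density Dlx5 was lower in KO-labelled cells by a log2 ratio of -2.02 ± 0.24. The KO-labelled signal was then well above background on 1 of 2 arrays, and the ratio was -4.11 in Agilent's processed signals.

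Of the Iroquois (Irx) genes, which pattern the neural plate, heart and limb, Irx1 and Irx5 were higher in KO-labelled cells. Irx1 gave 9.15 and 9.36 at low and 10.87 and 10.84 at high density in WT-labelled cells, and 12.30 and 12.70 at low and 13.69 and 13.75 at high density in KO-labelled cells. It rose with density by 1.60 ± 0.17 and 1.22 ± 0.25 and was higher in KO-labelled cells by 3.24 ± 0.14 at low and 2.87 ± 0.06 at high density. A dimmer second Irx1 probe was at background in WT-labelled cells, which made it at least 1.87-fold and at least 2.13-fold higher in KO-labelled cells, and had a density ratio of 0.32 there. The density call in KO-labelled cells is lost with median centring, at 0.75, and with the mean over probes, at 0.77. Irx5 was higher in KO-labelled cells by 1.32 ± 0.05 and 1.81 ± 0.33, with WT-labelled signals of 7.26 to 7.47 and KO-labelled signals of 8.60 to 9.37. The neighbours of these genes did not reach 2-fold, with genotype ratios of 0.28 and 0.47 for Irx2 beside Irx1, and of 0.14 and 0.35 for Irx3 beside Irx5. Of 5 neighbouring pairs with both genes detected, all 5 were measured with density in KO-labelled cells and between genotypes at low density. Only 4 were measured in the other comparisons. Not 1 pair had both genes called in the same direction in any comparison. The share over neighbouring pairs of all genes was not computed, so these few pairs have nothing to be read against.

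Six5 and its relatives work with Eya coactivators in muscle, kidney and sense organs. Six5, which lies beside the myotonic dystrophy kinase gene, rose with density in both genotypes. It went from 8.84 and 9.01 to 10.37 and 10.41 in WT-labelled cells and from 8.06 and 8.07 to 10.16 and 10.18 in KO-labelled cells, with ratios of 1.47 ± 0.09 and 2.11 ± 0.01.

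Lhx9, a LIM factor of the gonad and limb, fell with density in WT-labelled cells from 9.33 and 9.78 to 7.71 and 7.76, a ratio of -1.82 ± 0.28. In KO-labelled cells it was already low at low density, at 7.85 and 8.44, and stood at 7.66 and 7.75 at high density, a ratio of -0.44 ± 0.36. The labels therefore differed at low density, by -1.41 ± 0.10, and hardly at high density, by -0.03 ± 0.02, and the difference in density effect was 1.38 ± 0.08. Lhx6, which acts beside Lhx8 in forebrain and tooth development, had density ratios of -0.09 ± 0.32 and 0.97 ± 0.29 and a difference of 1.06 ± 0.03. Its signal ranged from 8.65 to 8.97 in WT-labelled cells and went from 7.91 and 8.32 to 9.08 and 9.08 in KO-labelled cells.

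**Figure D3:**
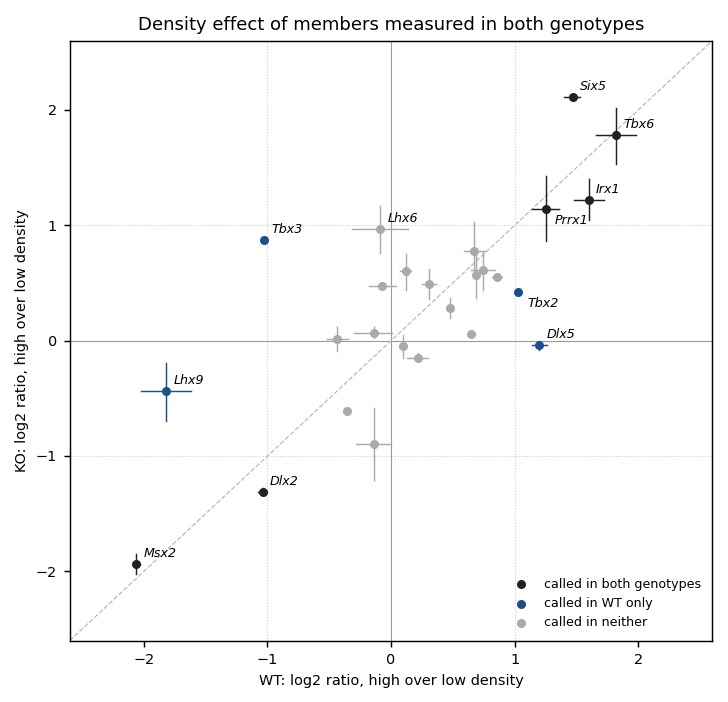
Mean log2 ratio of high over low density in WT-labelled (x axis) and KO-labelled cells (y axis) for 26 of the members measured in both, with lines that span the 2 arrays, dotted lines at 2-fold and a dashed line of equality. Msx2 and Dlx2 lie low in both, Six5, Tbx6, Irx1 and Prrx1 lie high in both, and Tbx3 lies at -1.03 in WT and 0.87 in KO.

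Among the T-box factors, Tbx3 had the largest difference in density effect of all members measured. Tbx3, a repressor of limb, mammary and heart development, fell with density in WT-labelled cells from 10.85 and 10.90 to 9.81 and 9.88, a ratio of -1.03 ± 0.01. In KO-labelled cells it stood at 9.82 and 10.09 at low and at 10.70 and 10.95 at high density, a ratio of 0.87 ± 0.02 that is below 2-fold. The difference was 1.90 ± 0.04 (probe at chr5:119945081-119945140, mm8). Tbx2, its close relative, had positive ratios in both, with 1.03 ± 0.01 in WT-labelled and 0.42 ± 0.03 in KO-labelled cells. The WT value was 0.96 with median centring, which loses the call, and 1.57 in Agilent's processed signals. Between genotypes Tbx3 stood at -0.92 at low and 0.98 at high density, just under the threshold each time.

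Tbx15 and Tbx18 are related genes of skeletal and dermal mesenchyme that differed in opposite directions between the labels. Tbx15 gave 11.32 and 11.41 at low and 12.00 and 12.03 at high density in WT-labelled cells, and 8.96 and 9.13 at low and 9.03 and 9.18 at high density in KO-labelled cells. It was lower in KO-labelled cells by log2 ratios of -2.32 ± 0.06 and -2.91 ± 0.09, and a second probe gave -2.36 and -2.94. The third probe gave -0.86 and -0.82, in the same direction and below 2-fold. Tbx18 gave 7.91 to 8.19 in the WT-labelled channels, and 10.45 and 10.75 at low and 9.87 and 9.54 at high density in the KO-labelled ones. It was higher in KO-labelled cells by 2.49 ± 0.09 and 1.73 ± 0.16, and its second probe was called at both densities too.

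Tbx6, the factor of presomitic mesoderm, rose with density in both genotypes. Its signals were 7.58 and 7.16 at low and 9.24 and 9.14 at high density in WT-labelled cells, and 7.67 and 7.48 at low and 9.20 and 9.50 at high density in KO-labelled cells. The ratios were 1.82 ± 0.23 and 1.78 ± 0.35, and their difference of -0.04 ± 0.12 was smaller than the spread between dyes. In all, 6 members were called in the same direction with density in both genotypes, namely Dlx2, Irx1, Msx2, Prrx1, Six5 and Tbx6. They make up 20.0% of the 30 measured in both, beside 5.75% of all genes, and 4 remained with median centring or with the mean over probes, where Irx1 and Prrx1 were lost.

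For 5 of these 6 a promoter window was found in RefSeq, and 3 of the 5, Prrx1 among them, hold the core of the TEAD binding motif, GGAATG on either strand. The windows of Tbx6, Prrx1 and Dlx2 are shown for this reason, 250 bases each before the start, 5′ to 3′ and with the core or its complement CATTCC in capitals. They lie at chr7:126781233-126781482, plus strand, chr1:163313651-163313900, minus strand and chr2:71546755-71547004, minus strand (GRCm38.p6).
Tbx6: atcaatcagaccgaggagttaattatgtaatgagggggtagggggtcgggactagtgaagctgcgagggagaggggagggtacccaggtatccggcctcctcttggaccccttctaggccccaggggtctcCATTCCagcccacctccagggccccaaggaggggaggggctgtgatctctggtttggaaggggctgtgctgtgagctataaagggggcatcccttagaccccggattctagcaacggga
Prrx1: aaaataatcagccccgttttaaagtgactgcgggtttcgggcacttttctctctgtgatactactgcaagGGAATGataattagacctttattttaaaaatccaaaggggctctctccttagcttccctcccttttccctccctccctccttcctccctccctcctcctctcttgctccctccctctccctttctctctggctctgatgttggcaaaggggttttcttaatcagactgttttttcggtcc
Dlx2: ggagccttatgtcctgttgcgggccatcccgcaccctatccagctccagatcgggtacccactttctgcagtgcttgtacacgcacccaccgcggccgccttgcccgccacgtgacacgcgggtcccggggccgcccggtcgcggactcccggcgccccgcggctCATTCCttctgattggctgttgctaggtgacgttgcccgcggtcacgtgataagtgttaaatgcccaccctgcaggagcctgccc
The core starts 119, 180 and 85 bases before the transcription start, respectively. None of the other 32 members with an entry holds it, which makes 8.11% of the 37 members, beside 12.6% of all 27025 genes. The homeodomain core TAATTA was found in 10.8% of the members and 4.9% of all genes. Of the members that hold the TEAD core, Tbx6 and Prrx1 rose with density and Dlx2 fell. The shared call of Prrx1 was lost with median centring or the mean over probes. Whether the core goes with the density response was not tested. A match of letters is a description of these windows, and binding was not measured here. Where a gene has several starts, the window listed first was used.

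**Figure D4:**
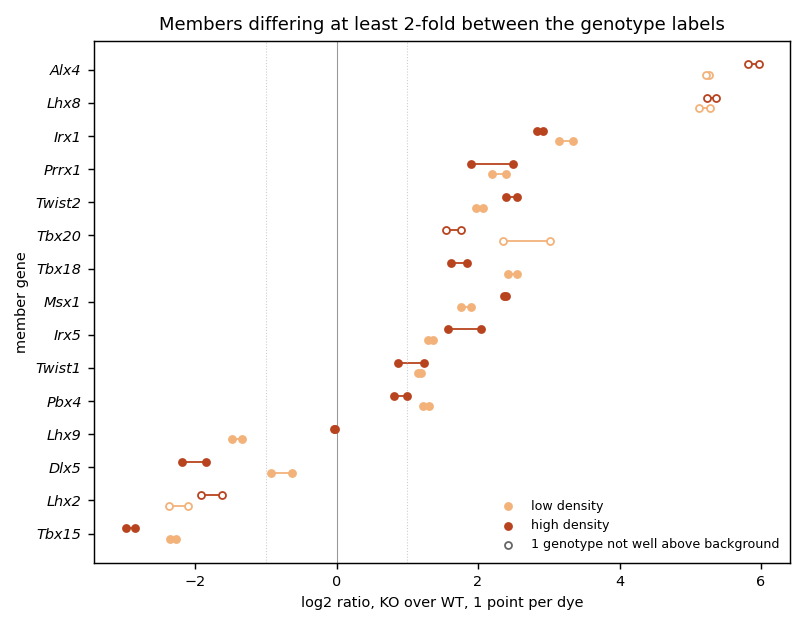
Log2 ratio of KO over WT at low and high density for 15 of the members called in at least 1 of these comparisons, 1 point per dye orientation, with dotted lines at 2-fold. Alx4 and Lhx8 lie above 5 at both densities, 10 members are called higher and 2, Tbx15 and Lhx2, lower at both densities, and open points rest on a genotype at background.

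Twist1 and Twist2, basic helix-loop-helix factors of head and dermal mesenchyme, were both higher in KO-labelled cells. Twist2 gave 8.67 and 8.89 at low and 8.32 and 8.37 at high density in WT-labelled cells, and 10.74 to 10.86 in all 4 KO-labelled channels, with ratios of 2.02 ± 0.07 and 2.47 ± 0.11. Twist1 was higher by 1.17 ± 0.03 and 1.05 ± 0.27, near the threshold, and without the first array of either genotype the high density ratio was 0.86, under 2-fold. Neither gene was called with density.

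The Pbx and Meis factors are cofactors that bind DNA together with Hox proteins, and Pbx4 was called among those described here. Pbx2, Pbx3 and Meis1 had positive density ratios in both genotypes, from 0.55 to 0.86, and none was called. Pbx4 was called higher in KO-labelled cells at low density, at 1.27 ± 0.06 (2.19 in Agilent's processed signals), with 0.90 ± 0.13 at high density. Its second probe gave 0.87 and 0.67, in the same direction and below 2-fold. For Meis1 the brightest probe was not called, but its second probe was 1.20 higher on the log2 scale in KO-labelled cells at low density. In all, 10 detected members were called nowhere, namely Dlx1, Irx2, Irx3, Meis1, Pbx2, Pbx3, Pitx3, Prrx2, Six4 and Tbx4.

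Partner proteins of these factors were read from a separate list of 27 genes, all on the arrays. With density, 4 of 18 measured partners were called higher and 1 lower in WT-labelled cells, and 3 of 20 higher and none lower in KO-labelled cells, against 15.5% and 11.0% of all genes in either direction. Between genotypes, 2 of 20 were higher and 1 lower in KO-labelled cells at low density, and 3 of 21 higher and 1 lower at high density, close to the 15.7% and 14.5% of all genes. Eya1, a coactivator that works with Six5 and its relatives, rose with density in WT-labelled cells by a log2 ratio of 2.26 and had a ratio of 0.73 in KO-labelled cells, and Eya4 had 1.60 and 0.47. The difference in density effect was -1.53 for Eya1 and -1.13 for Eya4, while Eya3 had 0.23 and Eya2 was at background. The LIM partner Ldb2 was at background in WT-labelled cells and at least 3.28-fold higher at low and 3.98-fold higher at high density in KO-labelled cells. The Twist partner and inhibitor genes Id2 and Id4 had differences in density effect of 1.60 and 1.35, while Twist1 and Twist2 had -0.12 and 0.45. The other 5 Twist partners measured, Id1, Id3, Tcfe2a, Tcf12 and Tcf4, lay between -0.06 and 0.58 and were not called.

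Other regional transcription factors, from a list of 49 genes of which 48 were on the arrays, were called more often lower than higher between labels. At low density 5 of 25 measured genes were higher and 10 lower in KO-labelled cells, and at high density 5 of 26 were higher and 11 lower, whereas 12 and 11 of the members were higher. All genes gave 15.7% and 14.5% in either direction. Shox2, Pax3 and Emx2 were higher in KO-labelled cells at low density, by at least 4.75-fold, 6.06-fold and 3.36-fold, each against background in WT-labelled cells. Zic1 and Gata6 were lower by at least 41.7-fold and 15.5-fold at low density, where both were at background in KO-labelled cells. With density, 3 of 21 were higher and none lower in WT-labelled cells, and 3 of 21 higher and 1 lower in KO-labelled cells. Whether the members and this list differ in direction was not tested.

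Markers of skeletal muscle and cartilage moved with some of these comparisons. The summed log2 signal of the 5 skeletal muscle genes was 13.10 and 13.13 at low and 11.05 and 11.16 at high density in WT-labelled cells, and 12.98 and 13.08 at low and 12.01 and 12.04 at high density in KO-labelled cells. This came mainly from Acta1, skeletal actin, which fell with density by log2 ratios of -2.14 and -1.06, and 3 of the 5 genes were at background throughout. The summed log2 signal of the 5 cartilage genes was 12.77 to 13.01 in WT-labelled channels, 10.69 and 11.00 in KO-labelled cells at low density and 12.58 and 13.10 at high density. This came mainly from Col2a1, the main cartilage collagen, which was above background in all 8 channels, while Col9a1 and Matn1 were at background throughout. The cartilage regulator Sox9, also above background in all 8 channels, rose with density in WT-labelled cells by 1.47, where Col2a1 had -0.48, and had a low density genotype ratio of 0.45 against -3.23 for Col2a1. The neural list summed to 10.35 to 10.51 on WT-labelled and 10.81 to 11.03 on KO-labelled arrays, with Sox2, Gfap and Olig2 at background, and Tubb3 fell with density by -1.19 and -1.07. Mtap2, the other neural gene above background in all 8 channels, rose with density in WT-labelled cells by 1.38, had a ratio of 0.42 in KO-labelled cells, and was higher in KO-labelled cells at low density by 1.84. Of the fibroblast list, 1 of 8 measured genes was higher and 2 lower in KO-labelled cells at low density, with a median of 0.20, and 3 of 9 were higher and none lower at high density, with a median of 0.69. At low density Pdgfra was the higher one, at 4.46, and Fn1, at -1.30, and Col1a2, at the threshold, the lower ones. With density, 4 of 9 were higher and 2 lower in WT-labelled cells, with a median of 0.56, and 6 of 9 higher and none lower in KO-labelled cells, with a median of 1.03. The list summed to 17.99 and 18.21 at low and 18.59 and 18.64 at high density in WT-labelled cells, and to 17.57 and 17.99 at low and 19.07 and 19.46 at high density in KO-labelled cells. The part of these changes in the members' results was not tested. In such bulk samples, fewer cells of a type and less RNA per cell cannot be told apart.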

How the data were processed

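RNA of MEFs labelled Lats2-/- (KO) or Lats2+/+ (WT) at low and high density was read on 4 Agilent 2-colour arrays, 2 per genotype with exchanged dyes. Per the file headers, the authors extracted the deposited scanner files with Agilent Feature Extraction 10.5.1.1. These hold mean and background intensity for Cy3 and Cy5, the software's processed intensity, and quality flags deposited as a score of 0 or 1. They also hold a log10 ratio of the dyes, of which the deposited value table is a rounded copy with the sign of swapped arrays turned.

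From the raw intensity, R 4.3.3 and limma 3.58.1 were used for normexp background correction (offset 50, which shrinks the ratios of dim probes), loess within arrays and Aquantile between arrays. Control spots and outlier flags (107 to 224 features per array) were left out, and features of 1 probe were averaged. Per channel, 52.8% to 56.2% of features were well above background on 3 arrays and 62.6% and 67.7% on the first KO array, and none was saturated. Without the second KO array, 40 in place of 35 members were measured with density in KO-labelled cells, and the number of arrays limits the precision. Density ratios are high over low within an array, and genotype ratios KO over WT within a dye. The brightest probe stood for a gene. Every member called in some comparison is named, with the other members in groups, except 4 members that are counted in the totals but not reported here. Symbols and positions come from the array annotation (mm8), and probes were not assigned to exons. RefSeq (GRCm38.p6) gave current names, neighbours and promoters. The arithmetic of the ratios and calls was checked on simulated data, which says nothing of biological error. The methods' t-test was not run, since a dye swap is 1 replicate. The members and lists were chosen with earlier results of these data known. Alternatives were median centring, processed signals, an offset of 10, other filters and probe rules, a 1.4-fold threshold, no scaling between arrays and leaving out each array.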

Additional observations from a re-analysis of the deposited data

Results flagged for a closer look

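For 3 members the density ratio had opposite signs in the genotypes on all arrays. The share of all genes that meet this sign rule was not computed. Tbx3 fell with density on both WT-labelled arrays (-1.03) and had a positive ratio on both KO-labelled arrays (0.87), a difference of 1.90 on the log2 scale. Dlx5 rose on both WT-labelled arrays (1.20) and had a mean ratio of -0.04 on the KO-labelled arrays, a difference of -1.24. Its KO-labelled ratios of -0.0 and -0.08, at signals close to background, amount to hardly any change and not to a fall. Pbx4 had ratios of 0.22 and -0.15, a difference of -0.37 that is well under 2-fold. With 1 replicate per genotype and density, none of these differences could be tested.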

How the results depend on the processing

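All 55 called values of members kept their sign under every alternative that gave a value for them, and 46 of them stayed past 2-fold under all of these. Leaving out an array could not turn a sign, since a call needs the same sign in both orientations. The filters could not either, since they leave the brightest probe's value as it is. Settings under which a member was not measured were not counted. For Alx4, Lhx8, Lhx2 and Tbx20 this left out the filter on every channel between genotypes. The calls lost somewhere included the density effects of Irx1, Prrx1 and Tbx20 in KO-labelled cells, those of Prrx1 and Tbx2 in WT-labelled cells, and the genotype ratio of Twist1 at high density. With a 1.4-fold threshold the number of called members was 20 for density in each genotype, beside 41.1% (WT) and 36.7% (KO) of all genes. It was 12 of 30 for the difference, beside 31.5%, and 23 of 34 between genotypes at high density, beside 39.4%. Agilent's processed signals gave ratios over 1.5 times as large for Msx2 (-3.30) and Tbx2 (1.57) with density in WT-labelled cells and for Pbx4 (2.19) between genotypes at low density, among others. With the mean over all probes of a gene, 5 of 35 measured members changed with density in KO-labelled cells, beside 9.24% of all genes. With a filter on every channel, which leaves fewer genes, 9 differed between genotypes at high density. That last count stands without the share of all genes. The median density ratio of the members in WT-labelled cells was 0.25 with median centring, which moved that of all genes from 0.06 to -0.05 (WT) and -0.08 (KO), and 0.30 with the mean over probes. In KO-labelled cells it was 0.45 with the filter on every channel. With no filter on dim probes the WT median was 0.01, the median difference -0.02, and the median density ratio in KO-labelled cells turned to -0.01, over 56 members that include those at background. No scaling between arrays moved the median genotype ratio of all genes at low density from 0.03 to 0.27. The density ratios are paired within arrays by construction. No paired analysis was possible because across genotypes the labels give no replicate numbers, and each genotype has 1 replicate.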
